A study of Arabidopsis thaliana with 6 samples.

Results

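The genes described here are MAC3B and 6 members of the LSM family, LSM1A, LSM1B, LSM3A, LSM3B, LSM6A and LSM6B, measured in floral buds of Arabidopsis thaliana from mutants of AtYAK1, which encodes a kinase of the DYRK type, and from the wild type. They were chosen from the 22810 probe sets of the Affymetrix ATH1 array as those whose listed gene symbol is MAC3B or LSM followed by a digit and whose log2 signal averaged at least 6.2 over the 6 arrays. The symbols matched 7 probe sets of 7 genes, and all 7 were kept. The lowest average was 8.85, for LSM3A, and the highest 11.41, for MAC3B, so no gene lay just inside the threshold and 0 lay outside it. The threshold used the average over all arrays and not the difference between genotypes. Each gene had a single probe set here, and every one carries the plain suffix that the manufacturer gives to probe sets designed for 1 gene.

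The groups were the mutant lines atyak1-1 and atyak1-2 and the wild type, all in the Col-0 background, with 2 biological replicates of each and 1 array per replicate. RNA came from mixed buds no older than stage 13, picked from primary inflorescences of 42-day-old plants under 12 h of light and 12 h of darkness. The 2 mutants carry different alleles of AtYAK1, and the study asked what the kinase does in the male gametophyte, the pollen. The kind of lesion in each allele and the number of plants behind each replicate are not given in the sources used here, and the transcript of AtYAK1 was not analysed here. Precision is limited throughout by having 2 arrays per genotype.

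LSM (Sm-like) proteins assemble into rings that hold the end of an RNA. The ring with LSM1 works in the cytoplasm, where it binds shortened messenger RNA and promotes removal of the cap and decay. The ring with LSM8 in place of LSM1 is nuclear and stabilises the U6 small nuclear RNA of the spliceosome. LSM3 and LSM6 are subunits of both rings, so among the genes here only the LSM1 pair is specific to the decay ring. In Arabidopsis LSM1, LSM3 and LSM6 are each encoded by a pair of genes, named A and B. MAC3B and its close relative MAC3A encode U-box ubiquitin ligases related to yeast Prp19, and belong to the MOS4-associated complex (MAC), which acts with the spliceosome and is known in Arabidopsis for its part in immunity.

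MAC3B was the 1 gene of the 7 called higher in the mutants. Its signal was 3355 and 3152 on the atyak1-1 arrays and 3233 and 2989.9 on the atyak1-2 arrays, against 1986 and 1987 on the wild-type arrays. Every mutant array lay well above both wild-type arrays, and the arrays of the alleles overlapped each other. Over both alleles the level was 1.60 times that of the wild type, with a 95% confidence interval of 1.35 to 1.89, or 0.68 ± 0.10 on the log2 scale (SE, from 4 mutant and 2 wild-type arrays; adjusted p = 0.028 in limma's moderated test with Benjamini-Hochberg adjustment over 15164 probe sets). Of all probe sets tested 0.284% were called higher in this contrast and 1.93% were called in either direction. MAC3B ranked high by size as well, since 334 of the 15164 probe sets had a larger log2 fold change. The call was lost without either wild-type array, without either atyak1-2 array and without a variance trend in the fit (adjusted p = 0.066, limma). Calls over all probe sets tested were also fewer in each of these fits. Leaving out an array leaves a single one in that genotype. The log2 fold change of MAC3B stayed between 0.65 and 0.71 with each array left out. The wild-type arrays differed by only 0.0014 on the log2 scale. The fit does not use their spread alone. It pools the spread within all genotypes into 1 estimate per probe set, drawn towards that of other probe sets.

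In single alleles the size was alike but the call was not reached. MAC3B had a log2 fold change of 0.71 ± 0.12 in atyak1-1 (adjusted p = 0.0504, limma) and 0.65 ± 0.12 in atyak1-2 (adjusted p = 0.076). With the replicate number as a block both passed, at 0.0096 and 0.016. The share of all probe sets called higher was 0.112% in atyak1-1 and 0.0989% in atyak1-2, and with the block 1.39% and 0.87%. In atyak1-1 the call was also reached without the signal filter (0.046), with log2(signal + 32) (0.043) and after quantile normalization (0.045). Over both alleles these settings called 445 of 22746, 355 of 15164 and 332 of 15164 probe sets, against 292 of 15164 in the fit reported. Against the wild-type array of the same replicate, MAC3B was higher by 0.76 in atyak1-1 and 0.70 in atyak1-2 within replicate 1, and by 0.67 and 0.59 within replicate 2 (log2). The size within each replicate was thus near that of the whole fit.

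**Figure D1:**
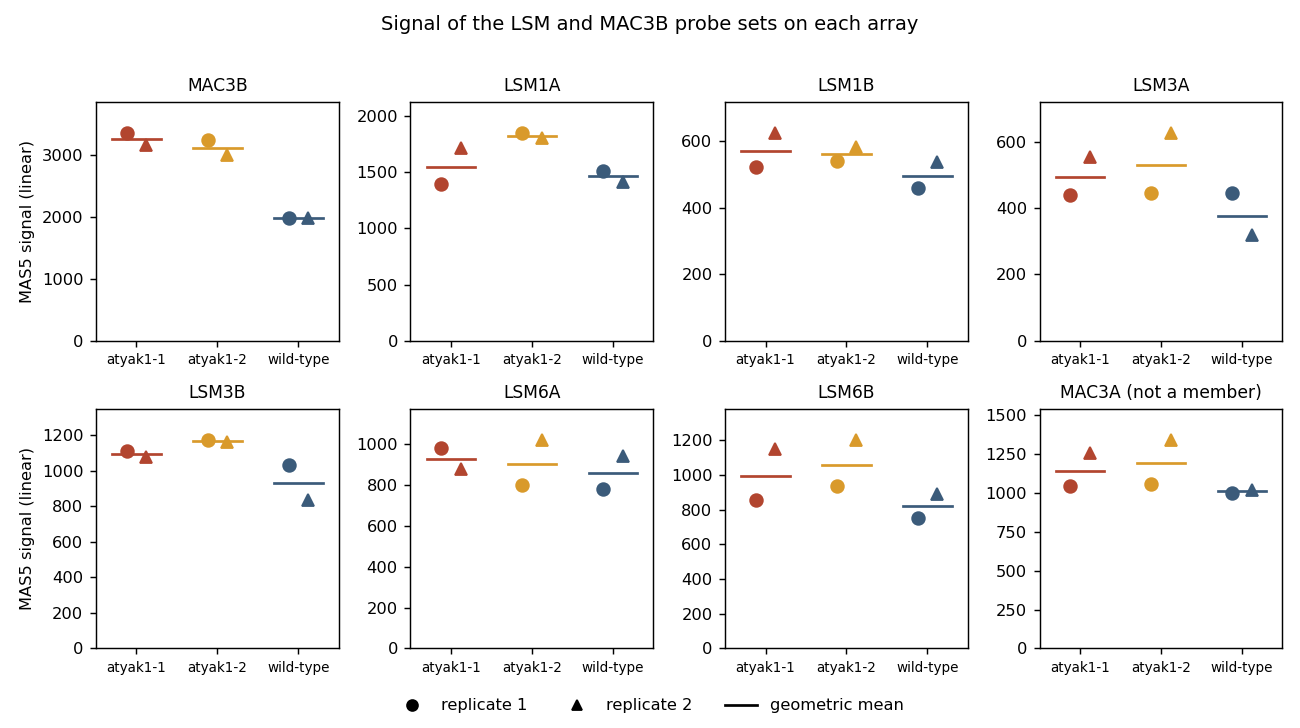
MAS5 signal on a linear axis for each of the 7 genes and for MAC3A, by genotype; circles are replicate 1, triangles replicate 2, and bars the geometric mean of 2 arrays. The MAC3B arrays of both mutants, from 2989.9 to 3355, lie above the wild-type arrays at 1986 and 1987, whereas most LSM panels overlap between genotypes.

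MAC3A, which the naming rule does not include, gives the level of the other Prp19-like gene. Its signal was 1043 and 1258 in atyak1-1 and 1061 and 1339.7 in atyak1-2, against 1003 and 1022 in the wild type. All 4 mutant arrays were above the wild type, though the replicate 1 arrays only slightly. Over both alleles its log2 fold change was 0.21 ± 0.15 (adjusted p = 0.51, limma), with 0.068 in replicate 1 alone and 0.35 in replicate 2 alone. The difference between the log2 fold changes of MAC3B and MAC3A was 0.47, with p = 0.13 in an exact two-sided permutation test over the 15 ways to choose 2 of the 6 arrays (0.53 after Benjamini-Hochberg adjustment over the 4 gene pairs compared). The smallest p these splits allow is 0.067, so the test could not pass 0.05 for any pair and does not show that paralogues responded alike. It also leaves the replicate numbers unused.

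LSM3A, a subunit of both rings, had the widest range of the LSM genes. It gave signals of 438 and 555 in atyak1-1 and 445.5 and 626 in atyak1-2, against 445.4 and 319 in the wild type. The replicate 1 arrays of all genotypes were thus nearly level, and the replicate 2 arrays of the mutants stood above a low wild-type array. Its log2 fold change over both alleles was 0.44 ± 0.21 (95% confidence interval -0.074 to 0.95; adjusted p = 0.36, limma). In replicate 1 alone it was -0.011 and in replicate 2 alone 0.88, and it was 0.20 without the wild-type replicate 2 array.

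LSM3B, the other LSM3 gene, gave 1114 and 1078 in atyak1-1 and 1171 and 1163 in atyak1-2, against 1032 and 838 in the wild type. It shared with MAC3B the property that all 4 mutant arrays were above both wild-type arrays. This was so for 2 of the 7 genes and for 21.3% of all probe sets tested, so the count is near the background. LSM3B had a log2 fold change of 0.28 ± 0.13 (95% confidence interval -0.023 to 0.59; adjusted p = 0.33, limma). In replicate 1 alone this was 0.15 and in replicate 2 alone 0.42. The log2 fold changes of LSM3A and LSM3B differed by 0.15 (p = 0.53 in the same exact permutation test, adjusted 0.71).

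LSM6B, also a subunit of both rings, had signals of 856 and 1151 in atyak1-1 and 934 and 1199 in atyak1-2, against 753 and 888 in the wild type. In every genotype replicate 2 was the brighter array, and the atyak1-1 replicate 1 array lay below the wild-type replicate 2 array. LSM6B thus had a log2 fold change of 0.33 ± 0.18 (95% confidence interval -0.099 to 0.75; adjusted p = 0.40, limma). Within replicate 1 it was 0.25 and within replicate 2 it was 0.40, so each mutant array exceeded the wild-type array of its own replicate.

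LSM6A showed the smallest log2 fold change of the 7. Its signals of 982 and 880.0 in atyak1-1 and 798 and 1019 in atyak1-2 overlapped those of 779 and 943 in the wild type. This log2 fold change was 0.095 ± 0.16 (95% confidence interval -0.28 to 0.47; adjusted p = 0.79, limma), and it changed sign to -0.043 without the wild-type replicate 1 array. The median over all probe sets tested was 0.092. The log2 fold changes of LSM6B and LSM6A differed by 0.23 (exact permutation p = 0.33, adjusted 0.67).

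LSM1A and LSM1B encode the subunit that marks the cytoplasmic decay ring. LSM1A gave 1396 and 1716 in atyak1-1 and 1850.5 and 1800.0 in atyak1-2, against 1513 and 1414 in the wild type. The atyak1-2 arrays were above all others, and the atyak1-1 arrays lay on both sides of the wild type. LSM1B gave 522 and 624 in atyak1-1 and 539 and 583 in atyak1-2, against 458 and 537 in the wild type. Here both atyak1-2 arrays exceeded the wild type, 1 of them by a margin of less than 2 signal units, and the atyak1-1 replicate 1 array fell between the wild-type arrays. The log2 fold changes over both alleles were 0.20 ± 0.13 for LSM1A (95% confidence interval -0.099 to 0.50; adjusted p = 0.46, limma) and 0.19 ± 0.14 for LSM1B (-0.15 to 0.53; 0.54). The pair differed in log2 fold change by 0.011 (exact permutation p = 0.93, adjusted 0.93).

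**Figure D2:**
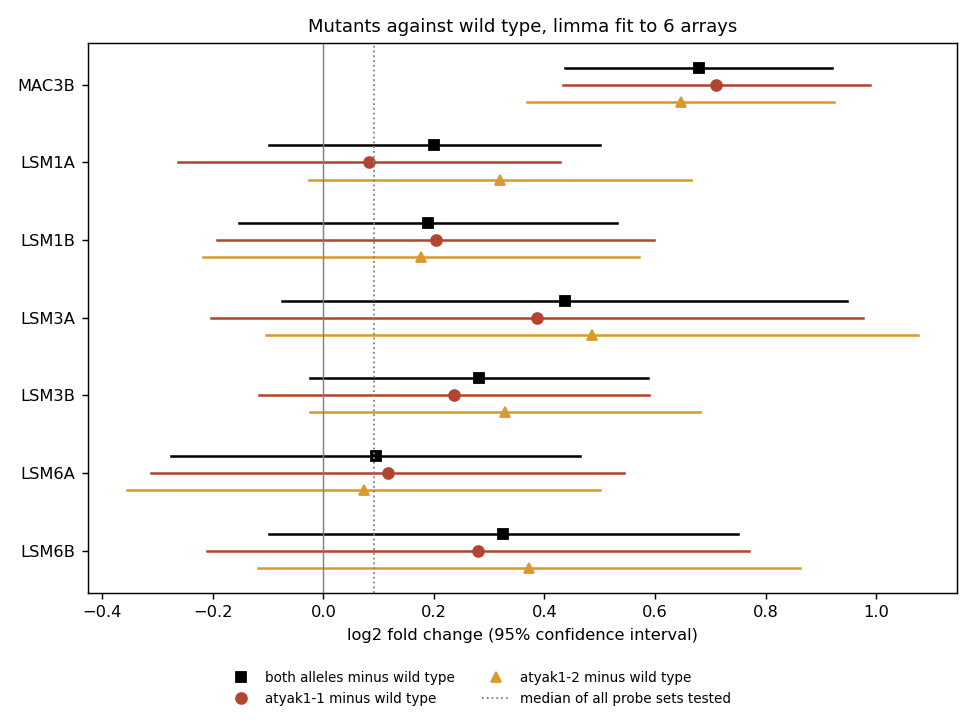
Log2 fold change against the wild type for each gene, with 95% confidence intervals from the limma fit to 6 arrays; squares are the mean of both alleles, circles atyak1-1 and triangles atyak1-2, and the dotted line is the median of all probe sets tested, 0.092. For MAC3B all 3 intervals lie above 0, and for every LSM gene the intervals include 0.

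The median log2 fold change was 0.28 over the 7 genes and 0.24 over the 6 LSM genes, beside 0.092 over all probe sets tested. All 7 were above 0, as were 64.5% of all probe sets tested. In the limma test 1 of the 7 was called higher and 0 lower, and the same 1 had an unadjusted p under 0.05, as had 17% of all probe sets tested. The members were picked with results of these arrays known, so the median and the shared direction carry no test. The LSM intervals reach from -0.28 to 0.95, and changes of the size seen in MAC3B lie inside those of LSM3A and LSM6B.

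The log2 difference from the wild type varied between replicates in ways that were not tested. For the 6 LSM genes its median was 0.17 within replicate 1 and 0.36 within replicate 2. It was larger in replicate 2 for LSM1A, LSM3A, LSM3B and LSM6B, but smaller there for LSM6A (0.0055, against 0.18 in replicate 1) and LSM1B (0.17, against 0.21). Within replicate 1 the median log2 difference of all 7 from the wild type was 0.18, with 6 above 0, and within replicate 2 it was 0.40, with 7 above 0. Over all probe sets tested these medians were 0.072 in replicate 1 and 0.10 in replicate 2. The replicate 2 mutant arrays lay farthest from the wild type on the first principal component, with scores of 44.7 for atyak1-1 and 28.2 for atyak1-2, against 5.04 and 8.98 for their replicate 1 arrays and -43.8 and -43.2 for the wild type. In a 2-group fit without them, chosen after seeing the data, the median of the 7 was 0.14, beside 0.078 over all probe sets tested, and MAC3B had 0.73 (adjusted p = 0.021, limma). Counting only genes in which both alleles exceeded the wild-type array of their own replicate in both replicates gave 4 of 7, MAC3B, LSM3B, LSM6B and LSM1B, against 31.6% of all probe sets tested.

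**Figure D3:**
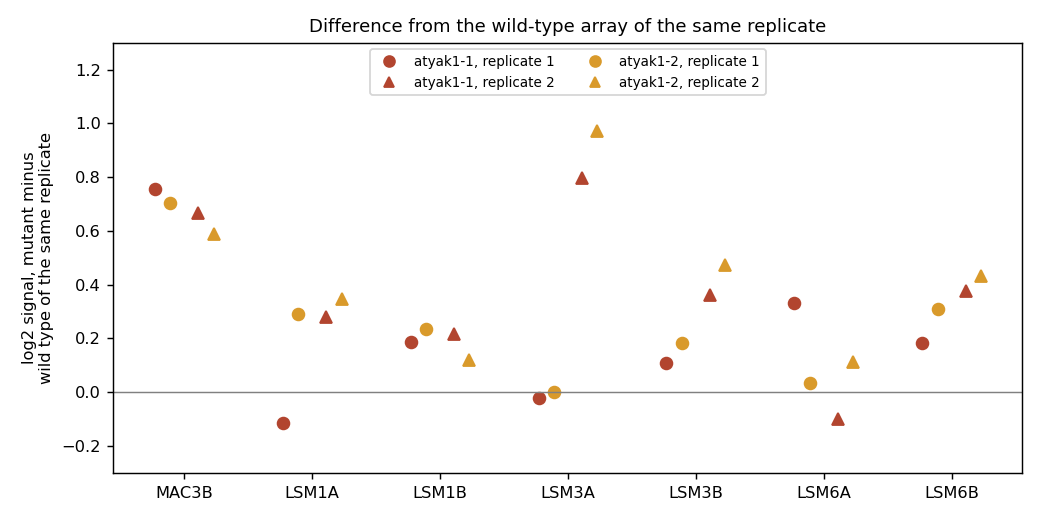
Log2 signal of each mutant array minus that of the wild-type array of the same replicate, for the 7 genes; circles are replicate 1, triangles replicate 2, with red for atyak1-1 and yellow for atyak1-2. MAC3B lies between 0.59 and 0.76 in all 4 comparisons, whereas LSM3A is near 0 in replicate 1 and at 0.80 and 0.97 in replicate 2.

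Between the alleles, the test called 0 of the 7 genes and 0 of all 15164 probe sets (0%) in limma. At an unadjusted p under 0.05 there were 0 of the 7 and 151 of all probe sets, and with the replicate block 2 of all probe sets were called. The order of the geometric mean signals was atyak1-2, atyak1-1, wild type for LSM1A, LSM3A, LSM3B and LSM6B, and atyak1-1, atyak1-2, wild type for MAC3B, LSM1B and LSM6A. The alleles did not overlap in LSM1A and LSM3B, where both atyak1-2 arrays were above both atyak1-1 arrays, as in 10.5% of all probe sets tested. The largest log2 difference, atyak1-2 minus atyak1-1, was 0.24 ± 0.15 for LSM1A (95% confidence interval -0.11 to 0.58), and its unadjusted p was 0.15. For MAC3B it was -0.065 ± 0.12, with an interval of -0.34 to 0.21 that leaves room for an unequal response. Both atyak1-2 arrays lay above both wild-type arrays in 6 of the 7 genes, all but LSM6A, beside 31.4% of all probe sets tested. Both atyak1-1 arrays did so in 2, MAC3B and LSM3B, beside 31.2%. These counts share the same wild-type arrays. For LSM3A and LSM1B the replicate 1 array of atyak1-2 cleared the higher wild-type array by under 2 signal units.

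No further spliceosome gene reached a call among the listed genes that had a named probe set. Lists of Sm core proteins, MAC subunits, U1 and U2 particles, the tri-snRNP and SR splicing factors held 69 genes besides the 7, of which 19 had a named probe set and all 19 were tested. None of the 19 was called in limma, in either direction, and 3 had an unadjusted p under 0.05, which is near the 17% of all probe sets tested. Their log2 fold changes ran from -0.041 to 0.47 with a median of 0.21, and 18 of the 19 were above 0. In 10 of the 19, all 4 mutant arrays were above both wild-type arrays, beside the 21.3% of all probe sets given above. Again no test was made of the list.

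Within these lists U2AF35B, the small subunit of the factor that reads the 3′ splice site, came nearest to the threshold. Its log2 fold change was 0.47 ± 0.12 (adjusted p = 0.13, limma), and it passed with the replicate block (0.034). The block raised the calls over both alleles among all 15164 probe sets from 292 to 1151, so this pass is not particular to U2AF35B. The U1 and U2 list had 8 tested genes with a median of 0.20, among them AT5G17440 at 0.34, AT4G03120 at 0.21 and PRP39 at 0.21. The tri-snRNP list had 3, with AT2G40650 at 0.36, AT1G28060 at 0.30 and LIS, known for its part in egg cell fate, at 0.22. The 7 tested Sm core genes had a median of 0.24, with AT3G11500 at 0.24, AT3G07590 at 0.27, AT5G44500 at 0.26 and AT4G02840 at 0.18. MAC3A was the 1 tested gene of the MAC list, and the SR list had 0.

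Partners of the LSM1 ring were read from a list of 10 decapping and decay genes, of which 3 were tested. AT3G61240 had a log2 fold change of 0.46 ± 0.16 (adjusted p = 0.23, limma), AT2G45810 had 0.33 ± 0.11 (0.20) and AT1G79090 had 0.024 ± 0.15 (0.95). None was called, and 2 of these 3 had an unadjusted p under 0.05, beside the 17% given above. Their median of 0.33 lay within the range of the LSM genes.

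**Figure D4:**
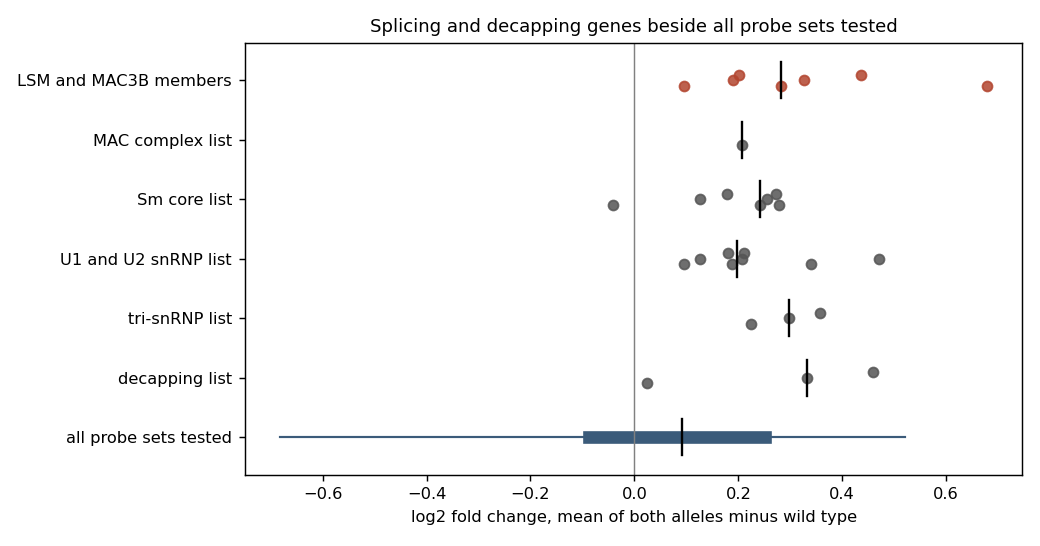
Log2 fold change of the mean of both alleles against the wild type for the 7 genes and for the tested genes of 5 lists, 1 point per gene with a bar at the median; for all probe sets tested the thick bar spans the 25th to 75th percentile, -0.087 to 0.25, and the thin line the 5th to 95th, -0.68 to 0.52. MAC3B at 0.68 is the point farthest to the right.

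Several measures of the arrays stand beside these results. The arrays had like brightness, with median signals of 213 to 223, and the actin control probe sets had a 3′ over 5′ signal ratio, a sign of RNA integrity, that was lower on every mutant array than on the wild-type array of its replicate. In replicate 1 this ratio was 1.56 in atyak1-1 and 1.68 in atyak1-2, against 1.91 in the wild type, and in replicate 2 it was 1.43 and 1.53, against 1.58. Its part in the MAC3B result was not tested. Late pollen genes moved with genotype in the other direction from MAC3B: the summed signal of the 13 with a named probe set, of 15 listed, was 1044 to 3147 on the mutant arrays and 11734 to 14310.4 on the wild-type arrays, and 12 of the 13 had every mutant array below both wild-type arrays, beside 10.9% of all 22746 probe sets. None of the 13 was at 0, but the lowest mutant signal was 2.77. The signal filter kept 9 of the 13 for testing. Of these 9, 5 were called lower in limma, beside 249 of all 15164 probe sets tested. The largest part of each summed signal came from 1 gene, with 6938 and 8169 on the wild-type arrays and 494 to 2189 on the mutant arrays. In buds, fewer cells of a type and less RNA per cell cannot be told apart, and the part of pollen content in the MAC3B result was not tested. Tapetum genes, which mark the anther tissue that feeds pollen, had 4 named probe sets with signals from 586 to 3783, a summed signal of 6253 to 10190.8 on the mutant arrays and 4583 to 9389.6 on the wild-type arrays, and 0 calls in limma (0 with an unadjusted p under 0.05). The 9 listed genes of floral organ identity had 0 named probe sets, so the bud label was not checked against them. RCA, the 1 gene of a photosynthesis list with a named probe set, had a log2 fold change of -0.015 ± 0.13.

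Genes with profiles like those of MAC3B and LSM3A were sought among 8299 other named probe sets tested, by the root mean square difference of log2 signals over the 6 arrays after each gene was centred on its own mean. The 3 closest to MAC3B were AT2G42690 (0.051), AT2G19740 (0.058) and Fes1B (0.067). AT2G42690 gave signals of 1406 and 1221 in atyak1-1 and 1305 and 1217 in atyak1-2, against 761 and 837 in the wild type. Its log2 fold change of 0.69 ± 0.12 was close to that of MAC3B (adjusted p = 0.049, limma), and AT2G19740 and Fes1B had 0.65 and 0.61 and were not called (0.053 and 0.056). The 3 closest to LSM3A were AT4G04180 (0.076), AT3G19440 (0.082) and AT5G40540 (0.084), all with the same low wild-type replicate 2 array. Among the 7 genes themselves, the closest profiles were those of LSM1B and LSM6B (0.12), and the farthest from MAC3B was LSM6A (0.32). With 6 arrays in 3 genotypes such likeness is a description only. Like log2 fold changes follow from choosing genes by their profiles on these same arrays.

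**Figure D5:**
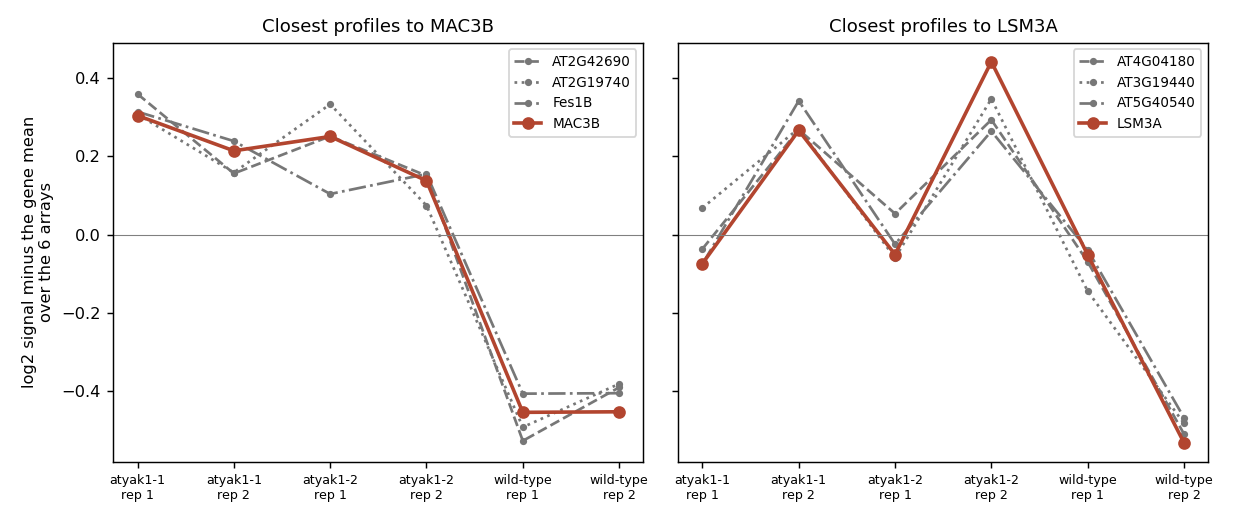
Log2 signal of MAC3B (left) and LSM3A (right) on each array minus the gene's mean over 6 arrays, in red, with the 3 closest named genes in grey; lines join the arrays of 1 gene. The MAC3B profile is high on all 4 mutant arrays, and the LSM3A profile is high on the replicate 2 mutant arrays and lowest on the wild-type replicate 2 array.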

How the data were processed

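The authors deposited an intensity per probe set, the MAS5 signal on a linear scale; the submitters' processing notes name GCOS and MAS5 without versions. The mean after trimming 2% at each end was 500.0 on each of the 6 arrays, which shows scaling to a common level and assumes like overall brightness. MAS5 values of single probe sets carry no depth, so only the spread between arrays gives their error.

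After removal of 64 control probe sets, signals were taken to log2 and the dimmest were dropped, those with a geometric mean signal under 73.6, which kept 15164 of 22746. All 6 arrays entered a fit of genotype means with a variance trend in limma 3.58.1 (R 4.3.3) with 3 residual and 3.84 prior degrees of freedom, and Benjamini-Hochberg adjustment ran over all probe sets tested, with a threshold of 0.05. The fit was also run on simulated data with known changes and with noise that was independent between arrays. The simulation lacks the shared deviations of replicates described below, so no conclusion about these arrays is drawn from it. Plots used matplotlib 3.10.9 in Python 3.11.15.

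Gene names came from the probe table of the platform (13513 probe sets with 1 gene, 503 with several, 8794 with none listed), and 13436 matched a RefSeq locus; codes are printed where that is the only name. The LSM family list held 11 genes, of which 5 had no named probe set and were not analysed here. The members, gene lists and tests were chosen with earlier results of these data known. All 7 members are named, with up to 4 genes of each spliceosome or decapping list by smallest p and 3 genes of like profile for MAC3B and for the widest-ranging LSM gene, besides MAC3A as the relative of MAC3B and RCA as the only gene of its list with a named probe set.

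Samples with the same replicate number deviated together from their group means. The correlations were 0.61 between the alleles, and 0.25 and 0.35 between atyak1-1 or atyak1-2 and the wild type. The numbers in the titles were therefore taken to pair the samples in the within-replicate differences and in the fit with the replicate block. The fit reported has no block, so its SEs, intervals and adjusted p leave the pairing unused. With 2 replicates a group the correlations are weak evidence of pairing. The fit with the replicate block and the other alternatives (filters, a pseudocount of 32, normalizations, variance trend, array weights, the groups fitted, each array left out) are in the closing section.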

Additional observations from a re-analysis of the deposited data

How the results depend on the processing

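MAC3B was the 1 gene called over both alleles, and this count ranged from 0 to 1 with single arrays left out; it was 0 without a variance trend. The count in atyak1-1, 0 in the fit reported, was 1 without the filter, with log2(signal + 32), after quantile normalization and with the replicate block. In atyak1-2 it was 1 with the replicate block. Each time the gene was MAC3B, and each of these settings also called more probe sets over both alleles than the fit reported. The block changed no other call among the 7 genes, and U2AF35B was the 1 call it added over both alleles among the spliceosome and decapping genes. Over both alleles the block gave MAC3B an adjusted p of 0.0048 (limma). It called 1151 of all 15164 probe sets there, against 292 without it. The median of the 7 ranged from 0.22 to 0.28 with arrays left out and from 0.14 to 0.29 under the other alternatives, and the MAC3B log2 fold change from 0.67 to 0.73 under those. With no signal threshold for the members the same 7 genes remained. The median over all probe sets tested lay between 0.085 and 0.095 under every normalization and log scale tried.

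Directions changed only with arrays left out, and only in differences that were not called. The log2 fold change of LSM6A then ranged from -0.043 to 0.23 over both alleles, from -0.021 to 0.25 in atyak1-1 and from -0.10 to 0.25 in atyak1-2, and that of LSM1A in atyak1-1 from -0.067 to 0.23. Between the alleles LSM6B ranged from -0.12 to 0.31, LSM6A from -0.22 to 0.13, LSM3A from -0.15 to 0.34 and LSM1B from -0.16 to 0.10. The cause was not tested, beyond the fewer arrays in each such fit.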
